A study of Mus musculus with 12 samples.

Results

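Small leucine-rich proteoglycans are secreted proteins built around a curved stack of leucine-rich repeats, most of them carrying sugar chains, that coat collagen fibrils and hold growth factors in the matrix. The 10 genes described here were chosen by name from that family: Dcn (decorin), Bgn (biglycan), Aspn (asporin), Lum (lumican), Fmod (fibromodulin), Omd (osteomodulin), Prelp, Kera (keratocan), Ogn (osteoglycin, also called mimecan) and Podn (podocan). They are 10 of the 23955 gene symbols in the count table, and 9 of the 10 were among the 12323 genes with enough reads to be tested; Kera was not. RNA was sequenced from mesenchymal stem cells of mouse bone marrow, which can become fat, bone or cartilage cells, after 14 days with 50 nM tributyltin (TBT), 500 nM rosiglitazone (ROSI) or the vehicle (DMSO, 0.1%), with 4 libraries in each group. Every group, the vehicle included, was also given a fat-inducing mix of dexamethasone (1 uM), insulin (5 ug/mL) and isobutylmethylxanthine (0.5 mM), so no group shows cells without induction. The cells were a purchased stock from female C57BL/6 mice at passages 9 to 10. Whether the 4 libraries of a treatment stem from separate cultures is not stated, and the p-values then reflect only how far these libraries differ, which may be technical.

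Rosiglitazone is a synthetic ligand of PPARγ, the receptor that drives fat-cell formation, and tributyltin is an organotin compound that binds both PPARγ and its partners, the retinoid X receptors. Per its title, the study concerned activation of retinoid X receptors during fat-cell formation. The agents were used at different concentrations, and the comparisons of each with the vehicle share the DMSO libraries.

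The family falls into classes by sequence. Decorin, biglycan and asporin form the first; decorin and biglycan carry chondroitin or dermatan sulfate chains, while asporin bears a run of aspartate residues and is best known from cartilage. Lumican, fibromodulin, osteomodulin, keratocan and Prelp form the second, in which keratan sulfate and sulfated tyrosines are common, and osteoglycin belongs to another. Decorin, lumican and fibromodulin set the width of collagen fibrils, biglycan is abundant in bone matrix and can act on innate immune receptors once released, and decorin and biglycan bind TGF-β.

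In these cultures biglycan, osteoglycin and decorin made up nearly all of the family's RNA. Under ROSI, 6 of the 9 tested members fell: Lum 5.51-fold, Dcn 4.44-fold, Omd 3.43-fold, Prelp 2.56-fold, Ogn 2.25-fold and Aspn 2.24-fold, while Bgn, Fmod and Podn did not pass the test (edgeR, all adjusted over every tested gene). In that comparison 22.6% of all tested genes were called, 10.0% higher and 12.6% lower. Under TBT, Lum fell 2.04-fold and Aspn 1.62-fold against DMSO, Bgn rose 1.71-fold, and Dcn, Omd, Ogn, Prelp, Fmod and Podn did not pass, beside 15.2% of all tested genes called (8.22% higher and 7.03% lower). Set directly against ROSI, TBT had higher Dcn, Lum, Bgn, Omd, Ogn and Prelp, 6 of 9, beside 23.9% of all tested genes called (12.8% higher and 11.1% lower). The rise of Bgn under TBT is the least stable of these calls and is described with its values below.

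Library totals ran from 4027152 to 7474654 counts. TBT replicate 4 stood apart from its group: Rn45s, the ribosomal RNA precursor, took 6.85% of its counts, against 0.399% to 0.670% in TBT replicates 1 to 3 and 1.36% to 9.27% in the ROSI and DMSO libraries, and values without it are given beside several results. Of 8 marrow stroma markers, Pdgfra among them, the summed level was 2406 to 3266 CPM in TBT, 1341 to 1534 in ROSI and 3059 to 4075 in DMSO, where CPM is the read count normalised to the TMM-scaled library size. Summed over 8 fat-cell markers the level was 2843 to 3931 CPM in TBT, 5553 to 7131 in ROSI and 1122 to 2408 in DMSO. By these sums the ROSI libraries were highest in fat-cell markers and lowest in stromal ones. Abundant genes carry the sums, and not every marker followed them. The stromal marker Nt5e averaged 7.59 CPM in TBT, 6.15 in ROSI and 5.64 in DMSO, and Thy1 averaged 7.76, 8.42 and 11.1. Eng was near 0 in all groups. The fat-cell marker Adipoq averaged 2.30 CPM in TBT, 13.3 in ROSI and 10.7 in DMSO. Smooth muscle markers (4 genes) summed to 618 to 1076 CPM in TBT, 334 to 383 in ROSI and 704 to 907 in DMSO. Of these, Myh11 averaged 20.8 CPM in TBT, 2.54 in ROSI and 5.01 in DMSO. Osteoblast markers (6 genes) summed to 336 to 492 CPM in TBT, 224 to 325 in ROSI and 519.7 to 772 in DMSO, and Sp7, Bglap and Ibsp, which define mature osteoblasts, were at or near 0 in every library. Spp1 averaged 192 CPM in TBT, 92.8 in ROSI and 404 in DMSO. Runx2 averaged 212, 171 and 216 CPM in those groups, and Alpl 30.2, 19.2 and 26.7. Markers of tenocytes, macrophages, endothelial cells and red blood cells each summed to at most 24.2 CPM in any library, and those of cartilage to 41.7 to 77.0 CPM in TBT, 45.1 to 81.0 in ROSI and 68.4 to 77.0 in DMSO, with Matn1 at 0 and Col2a1 and Acan near 0. The part of these marker shifts in the falls described below was not tested, and in bulk RNA fewer cells of a type and less RNA per cell cannot be told apart.

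Levels can be compared between genes only per length, so CPM was divided by the exon length of each gene in kilobases. Per kb, Bgn averaged 2859.6 ± 836 CPM in TBT, 1359.9 ± 335 in ROSI and 1676 ± 203 in DMSO (SD, n = 4 each). Ogn averaged 2349 ± 318 CPM per kb in TBT, 893 ± 174 in ROSI and 2006 ± 409 in DMSO. The ranges of these genes over the 4 libraries overlapped in each group. By group mean, Bgn came first in TBT and ROSI and Ogn in DMSO. Within single libraries, Bgn exceeded Ogn in every ROSI library and Ogn exceeded Bgn in every DMSO library. In TBT, Bgn exceeded Ogn except in replicate 4. The order of Bgn and Ogn was not tested. Both stood among the most abundant transcripts of the cells: of 12214 ranked genes, Bgn was number 5 in TBT, 8 in ROSI and 8 in DMSO, and Ogn number 7 in TBT, 17 in ROSI and 7 in DMSO. Dcn came next in every group, at 347 ± 43.7 CPM per kb in TBT, 92.5 ± 19.4 in ROSI and 411 ± 107 in DMSO, clear of its neighbours in the order. Its rank among all genes was 55 in TBT, 429 in ROSI and 42 in DMSO.

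Aspn, Prelp and Omd followed in that order in every group, between 5.58 CPM per kb (Omd in ROSI) and 65.1 (Aspn in DMSO). In TBT the libraries of Aspn overlapped those of Prelp, and those of Prelp overlapped those of Omd. Lum, next in each group, averaged 9.22 ± 1.17 CPM per kb in TBT, 3.31 ± 1.48 in ROSI and 18.9 ± 4.03 in DMSO, and overlapped with Omd in ROSI and DMSO. Fmod, Podn and Kera were the lowest, with Podn ahead of Fmod in ROSI only, by less than the spread of their libraries.

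**Figure D1:**
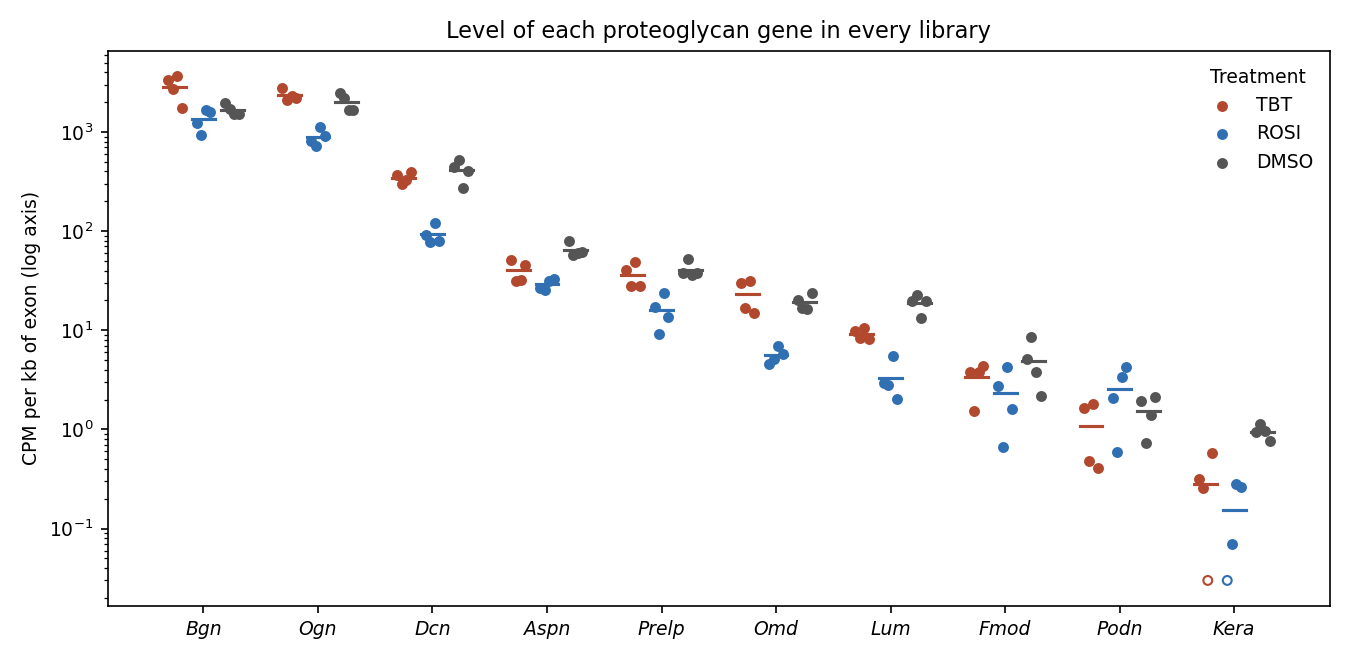
CPM per kb of exon on a log axis for the 10 genes in each of the 12 libraries, coloured by treatment (TBT left, ROSI middle, DMSO right); the bars are group means and open circles are libraries with a count of 0. Bgn and Ogn lie near the top in all groups, the ROSI libraries of Ogn, Dcn, Prelp, Omd and Lum lie below all TBT and DMSO libraries, and Kera lies near the bottom.

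Dcn and Lum are neighbours on mouse chromosome 10, followed on the same strand by Kera and Epyc (epiphycan, a cartilage family member outside the 10). Dcn measured 706, 581, 632 and 774 CPM in TBT replicates 1 to 4, 177, 152, 233 and 155 CPM in ROSI, and 867, 1022, 525 and 776 CPM in DMSO. The ROSI libraries lay below every other library, and the TBT values lay within the range of the DMSO ones. The log2 fold change of Dcn was -2.15 ± 0.19 (SE) in ROSI against DMSO, with a Benjamini-Hochberg adjusted p of 1.04e-06 in the edgeR quasi-likelihood fit of all 12 libraries, which gives every adjusted p here. TBT against ROSI gave 1.91 ± 0.19 (adjusted p = 3.32e-06). TBT against DMSO gave -0.24 ± 0.19 (adjusted p = 0.378), with a 95% interval of -0.61 to 0.12. With a correction for GC content and without TBT replicate 4, an alternative chosen after the data were seen, that value became -0.58 and passed (adjusted p = 0.0287).

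Lum, which shapes the collagen of cornea, skin and tendon, passed the test in all 3 comparisons. Its libraries had 24.3, 20.3, 25.7 and 20.0 CPM in TBT, 7.27, 6.79, 13.3 and 5.02 CPM in ROSI, and 48.5, 55.7, 32.3 and 48.2 CPM in DMSO. The 3 groups did not overlap at all: every DMSO library was highest, every ROSI library lowest, and TBT lay between. The log2 fold change was -2.46 ± 0.25 in ROSI against DMSO (adjusted p = 2.12e-06), -1.03 ± 0.23 in TBT against DMSO (adjusted p = 0.00776) and 1.44 ± 0.25 in TBT against ROSI (adjusted p = 6.20e-04). As a description with no test, the ratio of Dcn to Lum per kb was 36.7, 36.2, 31.1 and 48.8 in TBT, 30.7, 28.3, 22.1 and 39.0 in ROSI and 22.6, 23.2, 20.5 and 20.3 in DMSO, so every TBT library lay above every DMSO library.

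Kera, the keratan sulfate proteoglycan of the cornea, was barely detected. Its raw counts were 4, 3, 0 and 6 in TBT, 0, 1, 5 and 3 in ROSI, and 9, 11, 16 and 11 in DMSO. The DMSO libraries lay above the rest, but Kera did not reach the count filter. Fitted without a filter, the log2 fold change was -2.40 in ROSI against DMSO (adjusted p = 0.00434) and -1.69 in TBT against DMSO (adjusted p = 0.0564). Kera also entered some filtered fits that left out a library, but only through its DMSO libraries, where it was highest. That entry favours a lower value against DMSO, so no conclusion is drawn from these fits. TBT against DMSO passed there without TBT replicate 4 (adjusted p = 0.0138, or 0.00817 with the GC correction) and without ROSI replicate 1 (0.0498). It did not pass without DMSO replicate 4, ROSI replicate 2, 3 or 4 or TBT replicate 1, 2 or 3 (adjusted p up to 0.117), or in DESeq2 (0.0720). Its neighbour Epyc, also untested, had 14 counts in TBT, 6 in ROSI and 48 in DMSO, close to the Kera sums of 13 in TBT, 9 in ROSI and 47 in DMSO. Epyc shares exon sequence with an antisense gene, Gm10754, and without strand their reads cannot be told apart. Gm10754 averaged 0.725 ± 0.548 CPM in TBT, 0.180 ± 0.244 in ROSI and 1.84 ± 0.594 in DMSO. A set of 1477 receptor genes of smell, taste and pheromone sensing, seldom expressed outside sense organs, showed the same order of groups at a lower level: 0.0287 CPM per kb in TBT, 0.0133 in ROSI and 0.0992 in DMSO. Kera itself averaged 0.285 ± 0.235 CPM per kb in TBT, 0.154 ± 0.141 in ROSI and 0.950 ± 0.150 in DMSO. The part of such stray reads in the Kera counts was not tested.

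Aspn, Omd and Ogn lie side by side on chromosome 13, in that order and on the same strand, after another family gene, Ecm2. All 3 fell under ROSI, whereas Bgn on the X chromosome did not pass that test, and their promoters are shown for that contrast. Each run is the RefSeq window (GRCm38.p6) from 250 bases before to 50 after the annotated start, 5′ to 3′, in lower case. Capitals mark matches on either strand to the TATA box motif TATAAA, to the box named CCAAT that many promoters carry, and to AGGTCA, the half-site of nuclear receptors, and a match on the opposite strand appears as its reverse complement.
Aspn, chr13:49544193-49544492 (+): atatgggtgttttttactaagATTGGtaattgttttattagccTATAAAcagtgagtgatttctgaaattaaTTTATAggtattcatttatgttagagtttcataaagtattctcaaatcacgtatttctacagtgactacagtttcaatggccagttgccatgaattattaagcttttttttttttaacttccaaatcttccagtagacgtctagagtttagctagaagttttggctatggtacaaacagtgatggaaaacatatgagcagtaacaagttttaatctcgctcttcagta
Omd, chr13:49582212-49582511 (+): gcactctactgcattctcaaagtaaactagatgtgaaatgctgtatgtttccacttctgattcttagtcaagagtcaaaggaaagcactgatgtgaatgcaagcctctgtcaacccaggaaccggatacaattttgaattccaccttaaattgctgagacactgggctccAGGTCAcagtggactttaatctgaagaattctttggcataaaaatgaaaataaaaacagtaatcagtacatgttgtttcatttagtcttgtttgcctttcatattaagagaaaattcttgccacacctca
Ogn, chr13:49607765-49608064 (+): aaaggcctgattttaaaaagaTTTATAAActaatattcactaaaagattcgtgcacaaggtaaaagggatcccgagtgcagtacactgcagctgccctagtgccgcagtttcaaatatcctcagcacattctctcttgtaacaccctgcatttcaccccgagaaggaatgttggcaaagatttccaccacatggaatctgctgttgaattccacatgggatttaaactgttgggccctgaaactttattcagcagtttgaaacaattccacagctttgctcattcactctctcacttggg
Bgn, chrX:73483351-73483650 (+): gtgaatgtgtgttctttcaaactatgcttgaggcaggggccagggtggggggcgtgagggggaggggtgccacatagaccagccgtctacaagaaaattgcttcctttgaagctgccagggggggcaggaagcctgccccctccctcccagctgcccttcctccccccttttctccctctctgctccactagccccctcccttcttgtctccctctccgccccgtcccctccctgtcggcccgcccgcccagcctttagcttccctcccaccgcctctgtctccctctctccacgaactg

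The chromosome 13 windows are poor in G and C, at 31.0% in Aspn, 37.7% in Omd and 42.3% in Ogn, against 63.7% in Bgn and a median of 52.7% over 32851 promoters. CpG dinucleotides numbered 3, 1 and 4 in those windows and 9 in Bgn, against a median of 7. The contrast does not extend to every member. Prelp, which also fell under ROSI, had 55.3% and 7 CpG, and Fmod, which did not pass, had 51.0% and 3. No window was available for Dcn and Lum, which had the largest falls. Whether composition relates to the response was not tested. TATAAA occurs in 13.6% of all promoters and CCAAT in 37.4%. Aspn holds TATAAA on each strand, 207 and 178 bases before the start, and 1 CCAAT box. Ogn holds a pair of overlapping TATAAA matches, 229 and 227 bases upstream on opposite strands, which merge into a single run of capitals. The half-site AGGTCA, found in 16.3% of all promoters, appears once in Omd, 80 bases upstream. Of the 8 members with a promoter in the table, 2 held the half-site (Omd and Podn), 2 held TATAAA (Ogn and Aspn) and 4 held CCAAT (Fmod, Aspn, Prelp and Kera). No match was found in these 8 for the direct repeat of the half-site spaced by 1 base (0.0396% of all promoters), for the palindromic element of the glucocorticoid receptor (0.00913%), or for TGANTCA of AP-1 (7.81%). The E-box CANNTG, present in 72.3% of all promoters, was found in 6 of the 8, and the SMAD motif CAGAC, present in 49.6%, in 3. A match describes letters in these windows and shows no binding, and its absence says nothing of sites elsewhere.

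Ogn, the most abundant of the chromosome 13 genes, measured 7201, 5362, 5937 and 5608 CPM in TBT, 2087, 1842, 2884 and 2354 CPM in ROSI and 6361, 5689, 4265 and 4276 CPM in DMSO. Every ROSI library lay below every library of the other groups, and TBT and DMSO overlapped. Ogn fell by 1.17 ± 0.18 on the log2 scale in ROSI against DMSO (adjusted p = 1.35e-04), and TBT exceeded ROSI by 1.39 ± 0.18 (adjusted p = 4.55e-05). For TBT against DMSO the value was 0.23 ± 0.18 (adjusted p = 0.392, 95% interval -0.12 to 0.58).

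Omd, a bone-matrix protein that binds hydroxyapatite, followed Ogn with a larger difference. It had 67.6, 37.8, 70.6 and 33.3 CPM in TBT, 10.3, 11.5, 15.5 and 12.8 in ROSI, and 45.9, 37.4, 36.9 and 53.6 in DMSO. Every ROSI library lay below every library of the other groups, and within TBT replicates 1 and 3 stood above 2 and 4. The log2 fold change was -1.78 ± 0.24 in ROSI against DMSO (adjusted p = 3.68e-05) and 2.04 ± 0.24 in TBT against ROSI (adjusted p = 1.65e-05). TBT and DMSO overlapped, with 0.27 ± 0.22 (adjusted p = 0.420, 95% interval -0.16 to 0.70), and without TBT replicate 4 the difference was 0.44 (adjusted p = 0.0850).

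Aspn was the member of this cluster that passed under both agents. Its values were 121, 73.7, 76.2 and 107 CPM in TBT, 62.7, 60.5, 73.7 and 76.6 in ROSI, and 188, 136, 143 and 146 in DMSO. All DMSO libraries lay above all others, and TBT and ROSI overlapped. ROSI against DMSO gave -1.16 ± 0.17 (adjusted p = 6.72e-05) and TBT against DMSO -0.70 ± 0.16 (adjusted p = 0.0108). TBT against ROSI gave 0.47 ± 0.17, just short of the threshold of 0.05 (adjusted p = 0.0508). It passed in 5 of the 22 alternative fits: without DMSO replicate 1 (adjusted p = 0.0459), without TBT replicate 2 (0.0270), without TBT replicate 3 (0.0497), without a filter (0.0475) and in DESeq2 (0.0453). With the GC correction and without TBT replicate 4 it was -0.02 (adjusted p = 0.940). Cenpp, a centromere gene on the opposite strand, spans all 3 genes and Ecm2 without exon overlap. Because the reads carry no strand, Cenpp reads that fall on these genes cannot be told apart from theirs. Cenpp itself averaged 6.70 ± 2.19 CPM in TBT, 4.48 ± 2.24 in ROSI and 7.90 ± 2.35 in DMSO. The part of its reads in the counts of these genes was not tested.

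Bgn was the member that rose. Its libraries measured 7997, 6536, 8882 and 4255 CPM in TBT replicates 1 to 4, 3009, 2275, 4057 and 3817 CPM in ROSI and 4719.6, 4133, 3656 and 3710.0 CPM in DMSO. TBT replicates 1 to 3 lay above every other library, while TBT replicate 4 fell inside the DMSO range, and ROSI and DMSO overlapped. Its log2 fold change was 0.77 ± 0.22 in TBT against DMSO (adjusted p = 0.0258), 1.07 ± 0.22 in TBT against ROSI (adjusted p = 0.00222) and -0.30 ± 0.22 in ROSI against DMSO (adjusted p = 0.364, 95% interval -0.73 to 0.12).

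The rise in TBT against DMSO lost its call when DMSO replicate 2 (adjusted p = 0.0586), DMSO replicate 3 (0.0605), DMSO replicate 4 (0.0591), TBT replicate 1 (0.0761) or TBT replicate 3 (0.0944) was left out. Without TBT replicate 4 it was 0.96 (adjusted p = 6.12e-04). The other 14 of the 15 calls on members, over the 3 comparisons, held in all 22 alternative fits.

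Prelp, which anchors basement membranes to connective tissue, had 145, 101, 177 and 101 CPM in TBT, 62.4, 33.0, 85.0 and 49.6 in ROSI, and 135, 189.7, 130.0 and 135 in DMSO. The ROSI libraries again lay below all others, and TBT and DMSO overlapped. The log2 fold change was -1.36 ± 0.24 in ROSI against DMSO (adjusted p = 5.61e-04), 1.18 ± 0.24 in TBT against ROSI (adjusted p = 0.00237) and -0.17 ± 0.24 in TBT against DMSO (adjusted p = 0.650, 95% interval -0.64 to 0.29). Prelp shares exon sequence with an antisense gene, Gm15851, which is not among the gene symbols of the count table. Without strand the reads of the pair cannot be told apart.

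Fmod, a neighbour of Prelp on chromosome 1, and Podn, which lies on chromosome 4, were low and variable. Fmod had 12.0, 4.82, 12.0 and 13.5 CPM in TBT, 8.52, 2.05, 13.5 and 5.02 in ROSI, and 16.2, 26.4, 11.7 and 6.80 in DMSO, with overlap between all groups. It gave -1.02 ± 0.46 in ROSI against DMSO (adjusted p = 0.126), -0.51 ± 0.45 in TBT against DMSO (0.456) and 0.51 ± 0.47 in TBT against ROSI (0.440). The ROSI difference passed without ROSI replicate 3, at -1.57 (adjusted p = 0.0296), and in the fit without a filter (adjusted p = 0.0149).

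Podn, which belongs to a separate class of the family, had 5.36, 1.54, 5.78 and 1.30 CPM in TBT, 6.77, 1.90, 10.9 and 13.8 in ROSI, and 6.18, 2.34, 4.56 and 6.80 in DMSO. The groups overlapped, with the highest value in ROSI replicate 4 and the lowest in TBT replicate 4. Podn was the tested member with a positive value in ROSI against DMSO, 0.73 ± 0.49 (adjusted p = 0.330), and a negative one in TBT against ROSI, -1.24 ± 0.52 (adjusted p = 0.0903). TBT against DMSO gave -0.51 ± 0.54 (adjusted p = 0.546). The difference between TBT and ROSI passed without ROSI replicate 2 (adjusted p = 0.0235) and without a filter (adjusted p = 0.0112). Podn overlaps Scp2, a lipid transfer protein gene, without exon overlap. Scp2 averaged 132 ± 23.3 CPM in TBT, 224 ± 10.8 in ROSI and 129.8 ± 22.9 in DMSO, and the part of its reads in the Podn counts was not tested.

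Counted over the family, 6 of 9 tested members passed in ROSI against DMSO, all lower. The members' median log2 fold change was -1.17, against 0.01 for all tested genes. The groups did not overlap for 6 members, against 28.3% of all tested genes. In TBT against DMSO 3 of 9 passed, 1 higher and 2 lower. The members' median there was -0.24, against -0.01 for all tested genes, and 2 members, Lum and Aspn, did not overlap between groups, beside 15.7% of all genes. In TBT against ROSI 6 of 9 passed, all higher. Their median was 1.18, against 0.02 for all tested genes, and 6 did not overlap, beside 20.7% of all genes. The split of all genes in TBT against DMSO depends on the scaling: 1013 higher and 866 lower with TMM factors became 748 higher and 1143 lower with upper-quartile factors, under which Lum, Aspn and Bgn kept their calls.

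**Figure D2:**
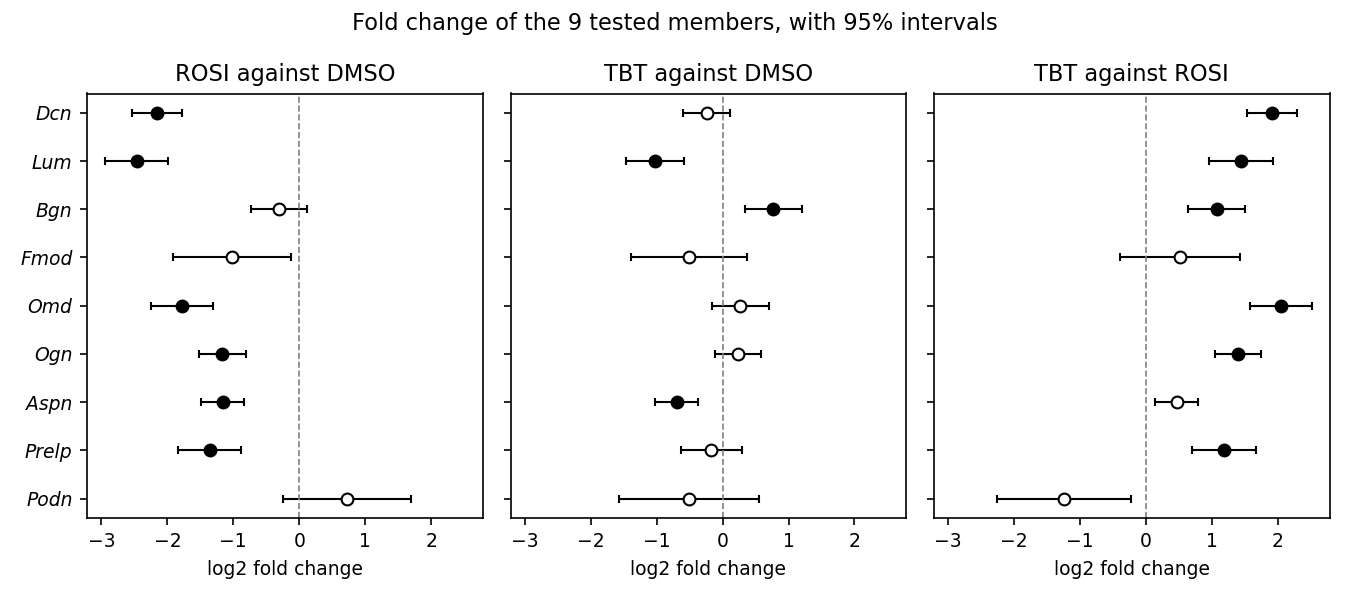
Log2 fold changes of the 9 tested members with 95% intervals, in ROSI against DMSO (left), TBT against DMSO (middle) and TBT against ROSI (right); filled points passed an adjusted p of 0.05. All filled points in the left panel lie below 0, from -2.46 (Lum) to -1.16 (Aspn), the middle panel has filled points on both sides, and all filled points on the right lie above 0.

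Summed over the 10 genes, the family reached 6614, 5177, 6440.4 and 4445 CPM per kb in TBT, 2205, 1781, 2997 and 2636 in ROSI and 5043, 4613, 3577 and 3748 in DMSO. Every ROSI library was below every other library, and TBT and DMSO overlapped. As a share of all counts the family took 1.33 ± 0.219% in TBT, 0.603 ± 0.144% in ROSI and 1.07 ± 0.189% in DMSO. Within the summed level, Bgn held 49.7 ± 7.36% in TBT, 56.3 ± 2.89% in ROSI and 39.7 ± 2.32% in DMSO. Dcn held 6.33 ± 1.79% in TBT, 3.90 ± 0.599% in ROSI and 9.63 ± 1.74% in DMSO, and Ogn made up most of the remainder.

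Biglycan and decorin are close relatives, and their balance was compared library by library. Per kb, the ratio of Bgn to Dcn was 9.07, 9.02, 11.3 and 4.41 in TBT replicates 1 to 4, 13.6, 12.0, 13.9 and 19.7 in ROSI and 4.36, 3.24, 5.58 and 3.83 in DMSO. All ROSI libraries lay above all others, TBT replicates 1 to 3 lay between ROSI and DMSO, and TBT replicate 4 fell within the DMSO range. The ratio of Bgn to Ogn was 1.18, 1.29, 1.59 and 0.805 in TBT, 1.53, 1.31, 1.49 and 1.72 in ROSI and 0.787, 0.771, 0.909 and 0.920 in DMSO, with ROSI above DMSO throughout and TBT replicate 4 again among the DMSO values. These sums and ratios are descriptions and were not tested.

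**Figure D3:**
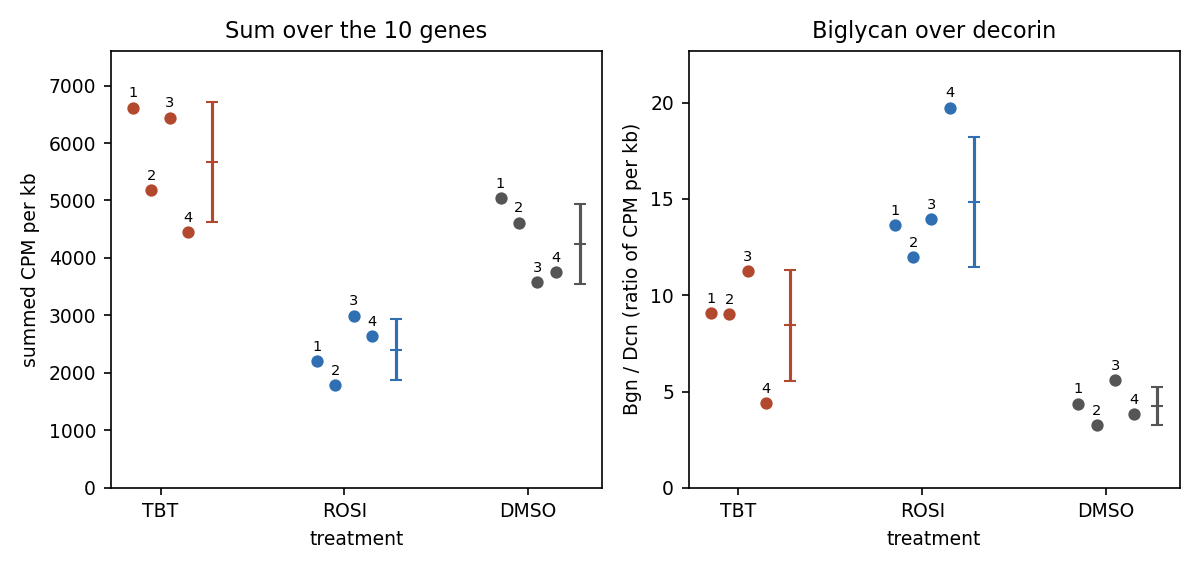
Left, summed CPM per kb of the 10 genes in each library; right, the ratio of Bgn to Dcn per kb; points are numbered by replicate, bars are mean ± SD (n = 4 per group). ROSI has the lowest sums (1781 to 2997 CPM per kb) and the highest ratios (12.0 to 19.7), and TBT replicate 4 lies with DMSO in the ratio.

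Of 8 other small leucine-rich genes, 3 passed the count filter: Ecm2, Tsku and Nyx. Epyc, Optc, Chad, Chadl and Podnl1 had fewer than 3 CPM in every library. Ecm2, which lies just before Aspn, had 71.1, 62.3, 61.8 and 26.5 CPM in TBT, 14.8, 12.8, 20.6 and 27.5 in ROSI, and 40.9, 38.4, 38.1 and 64.3 in DMSO. It fell in ROSI against DMSO by 1.27 ± 0.28 on the log2 scale (adjusted p = 0.00335) and was higher in TBT than in ROSI by 1.55 ± 0.28 (adjusted p = 9.84e-04), the same directions as its neighbours Omd and Ogn. ROSI and DMSO did not overlap for Ecm2, whereas TBT replicate 4 lay among the ROSI values. Tsku (tsukushi, a secreted protein that binds growth factors) went the other way, with 28.2, 32.8, 37.6 and 58.3 CPM in TBT, 72.0, 64.6, 62.2 and 49.8 in ROSI, and 21.6, 26.9, 36.6 and 26.4 in DMSO. It rose in ROSI by 1.14 ± 0.21 (adjusted p = 6.30e-04), and every ROSI library exceeded every DMSO library. Its difference between TBT and ROSI, -0.67 ± 0.21 (adjusted p = 0.0274), lost its call without ROSI replicate 1 or 2 or without TBT replicate 1, 2 or 3, with adjusted p of up to 0.100, and with GC-corrected offsets (0.0503). Without TBT replicate 4 it was -0.91 (adjusted p = 4.50e-04).

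Nyx, a membrane-anchored member known from the retina, was low, with 1.25, 0.772, 1.28 and 0.217 CPM in TBT, 3.76, 6.32, 2.59 and 4.61 in ROSI, and 1.90, 3.04, 3.32 and 2.37 in DMSO. TBT lay below both other groups, at -2.24 ± 0.43 against ROSI (adjusted p = 0.00133) and -1.56 ± 0.45 against DMSO (adjusted p = 0.0280). The difference from DMSO lost its call without DMSO replicate 2 (adjusted p = 0.0653), DMSO replicate 3 (0.0684) or TBT replicate 2 (0.0741). It also lost it with the replicate block (0.0563), with GC-corrected offsets (0.0508) and with those offsets and without TBT replicate 4 (0.0761).

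**Figure D4:**
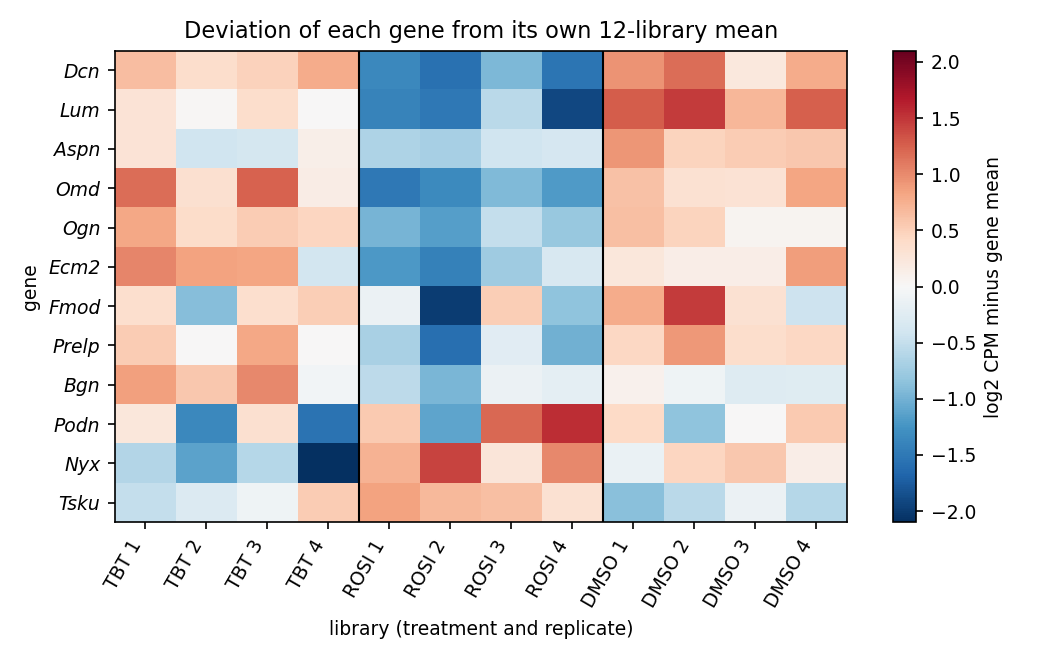
Log2 CPM of the 9 tested members and of Ecm2, Nyx and Tsku, each minus its own mean over the 12 libraries (red above, blue below), with TBT, ROSI and DMSO libraries from left to right. Dcn, Lum, Aspn, Omd, Ogn, Prelp and Ecm2 are blue in the ROSI columns, as is Bgn, which did not pass in ROSI against DMSO. Tsku and Nyx are red there, and Podn and Fmod vary within groups.

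Across the 12 libraries, likeness of profile was measured as the root mean square difference between log2 CPM values centred on each gene's mean, as a description with no p. Among the members, Ogn and Prelp were closest (0.34), then Dcn and Lum (0.39), and Dcn and Podn were farthest apart (1.61). The 3 nearest genes were then taken for each member from 10232 others with a mean of at least 5 CPM. Other family genes were not excluded, and none was among the nearest. For Dcn they were Apol9a (0.22), C1s2 (0.23) and Npr3 (0.23): an apolipoprotein L, a complement protease and the clearance receptor of natriuretic peptides. Lum was nearest to Nid2 (0.29), a basement membrane nidogen, Lrp4 (0.30) and the complement gene Cfb (0.32). Bgn was nearest to the methylcytosine dioxygenase gene Tet2 (0.16), the septin Sept7 (0.16) and Zfp788 (0.16). Ogn was nearest to Fam46a (0.17), the integrin subunit Itga1 (0.18) and the matrix glycoprotein Tnc (0.19). Near Omd were Parp14 (0.21), Mndal (0.22) and Ifih1 (0.23), a sensor of viral RNA. Near Aspn were Gulp1 (0.18), Atp10a (0.19) and Colec12 (0.19), and near Prelp were the sodium channel Scn3a (0.21), the vitamin D receptor Vdr (0.24) and Prss23 (0.25). The nearest genes to Fmod lay farther off, Islr (0.48), Hpse (0.49) and Dlk1 (0.51), as did Podn, with Cers4 (0.59), Atp2b4 (0.67) and Nosip (0.69).

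Small leucine-rich proteoglycans work on collagen, and 14 of 16 fibrillar and fibril-associated collagen genes were tested. The counts for this and the following gene lists are to be read against the shares called among all tested genes, 22.6% in ROSI against DMSO, 15.2% in TBT against DMSO and 23.9% in TBT against ROSI. Those shares belong to the main fit. Without TBT replicate 4 more of all tested genes were called in both TBT comparisons, with counts given at the end. Of the collagen genes, 1 was higher and 10 lower in ROSI against DMSO (median -0.74). In TBT against DMSO 5 were lower (median -0.46), with none higher in edgeR, at an unadjusted p under 0.05 or in DESeq2, and in TBT against ROSI 6 were higher and 2 lower (median 0.28). Col12a1, a collagen on the fibril surface, averaged 1463 ± 259 CPM in TBT, 634 ± 138 in ROSI and 2309 ± 441 in DMSO. Its log2 fold change was -1.86 ± 0.19 (adjusted p = 2.43e-06) in ROSI against DMSO and 1.21 ± 0.19 (adjusted p = 2.29e-04) in TBT against ROSI. Col11a1, which starts fibrils, fell in ROSI against DMSO (-1.44 ± 0.13, adjusted p = 1.26e-06), and so did Col24a1 (-4.53 ± 0.37, adjusted p = 4.05e-07). Col24a1 was low, at 0.423 ± 0.150 CPM in ROSI and 10.5 ± 2.70 in DMSO. In TBT against DMSO the strongest were Col24a1 (-1.70 ± 0.27, adjusted p = 8.85e-04) and Col14a1 (-1.27 ± 0.27, adjusted p = 0.00682). The count of 5 became 3 without DMSO replicate 1 or 4 or TBT replicate 2, and also 3 with GC-corrected offsets.

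The sugar chains are built by a set of enzymes. Of 17 tested genes for the linkage region and for chondroitin and dermatan sulfate, none passed in ROSI against DMSO in edgeR or in DESeq2, and 3 were lower at an unadjusted p under 0.05 (median -0.11). In TBT against DMSO 1 was higher and 2 lower (median -0.17), and in TBT against ROSI 2 were higher and 4 lower (median -0.22). The gene higher in TBT than in DMSO was Chst15 (a sulfotransferase). It lost that call without DMSO replicate 1, 2 or 4, TBT replicate 1, 2 or 3 or ROSI replicate 4 (adjusted p up to 0.128). It also lost it with the replicate block (0.0538), with upper-quartile factors (0.0601) and with only the 2 groups compared (0.0619). Csgalnact1, which starts chondroitin chains and was 1 of the 2 lower genes, lost its call against DMSO without DMSO replicate 3 (adjusted p = 0.0525) or 4 (0.0575) and with the block (0.0551). Without DMSO replicate 4 the list had 1 lower and none higher in TBT against DMSO. Without TBT replicate 4 it had 1 higher and 5 lower, in a fit that also called more of all tested genes than the 15.2% of the main fit. In TBT against ROSI the list had 3 calls instead of 6 without ROSI replicate 1 or 2 or with the block, and 2 without TBT replicate 1. Chst11, a chondroitin 4-sulfotransferase, averaged 73.3 ± 8.92 CPM in TBT, 136 ± 11.6 in ROSI and 121 ± 10.7 in DMSO. It was lower in TBT than in ROSI (-0.90 ± 0.12, adjusted p = 7.86e-05) and than in DMSO (-0.72 ± 0.12, adjusted p = 0.00134). Csgalnact1 was lower in TBT than in ROSI (-0.82 ± 0.15, adjusted p = 7.26e-04). Of 7 tested genes for keratan sulfate and tyrosine sulfation, 2 were lower in ROSI against DMSO (median -0.35), among them Tpst1, a tyrosine sulfotransferase (-0.85 ± 0.18, adjusted p = 0.00231). The other, B4galt4, lost its call without DMSO replicate 1, 3 or 4 or ROSI replicate 1, 2 or 3 (adjusted p up to 0.124), and with the replicate block (0.0579). None passed in TBT against DMSO in edgeR, where 1 was higher and 1 lower at an unadjusted p under 0.05 and DESeq2 called 1 higher (median -0.17); without TBT replicate 4 edgeR called 1 higher and 1 lower. In TBT against ROSI 1 was higher (median 0.46): Chst2 (0.90 ± 0.25, adjusted p = 0.0154), a call lost without ROSI replicate 2 or TBT replicate 1 or 3 (adjusted p up to 0.0714).

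Among 16 tested proteoglycans of other families, 2 were higher and 6 lower in ROSI against DMSO (median -0.22), with none higher without DMSO replicate 4 or ROSI replicate 1 or 3. In TBT against DMSO 1 was higher and 1 lower (median -0.27), and in TBT against ROSI 4 were higher and 2 lower (median 0.07). The gene lower in TBT than in DMSO, the syndecan Sdc2, lost that call without DMSO replicate 1, 2 or 4, TBT replicate 1, 2 or 3 or ROSI replicate 1 (adjusted p up to 0.0975). It also lost it with the replicate block (0.0762), without a count filter (0.0919) and with only the 2 groups compared (0.0714). Without TBT replicate 4 the list had 2 higher and 5 lower in TBT against DMSO. Hspg2 (perlecan of basement membranes) fell in ROSI (-0.78 ± 0.13, adjusted p = 3.37e-04), as did Spock3 (-2.05 ± 0.31, adjusted p = 1.01e-04) and Agrn (-0.61 ± 0.14, adjusted p = 0.00402). The glypican Gpc6 averaged 1205 ± 286 CPM in TBT, 422 ± 76.8 in ROSI and 682 ± 90.4 in DMSO, and was higher in TBT against DMSO (0.82 ± 0.18, adjusted p = 0.00700) and against ROSI (1.51 ± 0.18, adjusted p = 1.84e-05).

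Growth factors and receptors that the family is known to bind or signal through gave 6 lower of 15 tested in ROSI against DMSO (median -0.47) and 5 lower in TBT against DMSO (median -0.31). That count of 5 was 1 without DMSO replicate 1 or 2 or TBT replicate 1 or 3, 2 without DMSO replicate 4, TBT replicate 2 or ROSI replicate 1, 3 or 4, and 3 without DMSO replicate 3 or ROSI replicate 2; with the replicate block it was 1. Lrp1, an endocytic receptor, lost its call without any 1 library other than TBT replicate 4 or ROSI replicate 2 (adjusted p up to 0.130). It also lost it in 6 of the 10 other alternative fits. With GC-corrected offsets and without TBT replicate 4 it was -0.14 (adjusted p = 0.408). Tgfbr2, a TGF-beta receptor, lost its call without DMSO replicate 1, 2 or 4 or TBT replicate 1 or 3 (adjusted p up to 0.0815). It also lost it without a filter (0.0564) and with the block (0.0728). In TBT against ROSI 5 were higher (median -0.03), where DESeq2 also called 2 lower and edgeR called 4 lower without TBT replicate 4. The falls in ROSI were led by Bmp4 (-2.60 ± 0.40, adjusted p = 1.35e-04), the ATP-gated channel P2rx7 (-1.25 ± 0.23, adjusted p = 7.36e-04) and Tgfb3 (-0.90 ± 0.18, adjusted p = 0.00135). Bmp4 was low, at 0.678 ± 0.427 CPM in ROSI and 4.60 ± 1.21 in DMSO. Tgfb3 averaged 51.0 ± 13.5 CPM in TBT, 23.2 ± 4.86 in ROSI and 43.0 ± 2.71 in DMSO. Wisp1, a matricellular protein that binds decorin and biglycan, fell in TBT against DMSO (-0.87 ± 0.20, adjusted p = 0.0108).

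Proteases that cut the cores or process fibrillar collagen gave 5 lower of 9 tested in ROSI against DMSO (median -0.99) and 3 lower in TBT against DMSO (median -0.51), with 2 higher and 1 lower in TBT against ROSI (median 0.51). In TBT against DMSO 2 were higher and 5 lower without TBT replicate 4. That fit also called more of all tested genes than the 15.2% of the main fit. The list had 1 higher and 4 lower without ROSI replicate 1, and 5 lower without ROSI replicate 2. Pcolce, which enhances the cutting of procollagen, lost its call there without DMSO replicate 1, 2 or 4 or TBT replicate 1, 2 or 3 (adjusted p up to 0.102). Bmp1, the proteinase that removes the propeptide of biglycan, fell under both agents: it averaged 27.0 ± 6.00 CPM in TBT, 28.9 ± 1.74 in ROSI and 57.7 ± 4.80 in DMSO. Its log2 fold change was -1.09 ± 0.15 (adjusted p = 2.50e-04) in TBT against DMSO and -0.99 ± 0.15 (adjusted p = 1.03e-04) in ROSI against DMSO. Mmp2, a gelatinase that also cuts decorin, fell under both as well, with -2.35 ± 0.25 (adjusted p = 2.60e-05) in TBT and -2.14 ± 0.24 (adjusted p = 7.09e-06) in ROSI against DMSO. Adamts5, an aggrecanase, averaged 262 ± 42.7 CPM in TBT, 99.4 ± 7.11 in ROSI and 329 ± 55.6 in DMSO. It was lower in ROSI than in DMSO (-1.73 ± 0.15, adjusted p = 7.75e-07) and higher in TBT than in ROSI (1.40 ± 0.15, adjusted p = 5.09e-06).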

How the data were processed

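The authors deposited raw read counts per gene symbol and regularized-log values on a log2 scale, each with 1 column for each of the 12 libraries. Libraries from RNA depleted of ribosomal RNA were read on a SOLiD sequencer as single 50 nt reads without strand, per the labels' protocols. Per the submitters' processing notes the build was mm9, with FastQC, SAMtools and DESeq2 (no versions). For the aligner, the counting program and the annotation, names were not given in the sources used here, so how reads shared between similar genes were counted is unknown.

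The deposited counts were tested in R 4.3.3 with edgeR 4.0.16: filterByExpr, TMM factors and 1 quasi-likelihood model of all 12 libraries without covariates, with Benjamini-Hochberg adjustment over the 12323 tested genes and a threshold of 0.05. Standard errors are the log2 fold change over the root of F, and 95% intervals are 1.96 standard errors each way. Errors on levels are SD over 4 libraries. Exon lengths, gene order and overlaps came from GENCODE M21 on GRCm38, another build than the counts, and no gene coordinates are printed except those of the RefSeq promoter windows, which 8 of the 10 members have. No pair of libraries in a group was a copy (lowest chi-square per degree of freedom 4.66). The 10 members, the gene lists and the rule for named genes (all members, all 8 other family genes, up to 3 genes by p from each further list and comparison, and 3 nearest profiles per member) were chosen with earlier results of these data known. The 22 alternatives replaced TMM by upper-quartile or DESeq2 size factors, edgeR by DESeq2 1.42.0, the filter by none or by a mean of 5 CPM or more, added the replicate number as a block, used only the groups compared, or ran limma 3.58.1 on the deposited log2 values; the others left out each library in turn or, chosen after seeing the data, used offsets corrected for GC content with and without TBT replicate 4.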

Additional observations from a re-analysis of the deposited data

Results flagged for a closer look

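Prelp in DMSO replicate 2 stood apart from the rest of its group, at 189.7 CPM, with the next DMSO library at 135 CPM. The gap was 0.911 of the range of the 4 libraries. All 30 sets of 4 libraries (10 genes in 3 groups) were checked, and chance alone marks about 1 in 20 of them. Without that library the fall of Prelp in ROSI against DMSO was -1.21 (adjusted p = 0.00294 in edgeR's quasi-likelihood test), against -1.36 with it.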

How the results depend on the processing

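Over 27 results on members (9 genes in 3 comparisons), 573 of 594 alternative values kept direction and side of the threshold, 10 gained a call, 6 lost one and 5 changed sign. The 6 losses all concern Bgn in TBT against DMSO, and the sixth was the replicate block (adjusted p = 0.0568). The sign changes were on values without a call: Ogn in TBT against DMSO became -0.00183 with GC-corrected offsets, and with GC-corrected offsets and without TBT replicate 4 it became -0.0115, Prelp 0.13 and Podn 0.0239 in TBT against DMSO, and Aspn -0.0152 in TBT against ROSI; the cause was not tested. Members called in TBT against DMSO numbered 5 of 10 with that last setting, beside 3471 of all 12519 genes tested in it. Lum, Aspn, Dcn and Kera were lower and Bgn higher, and Kera entered that fit only through its DMSO libraries. Genes called in TBT against DMSO, 1879 as reported, were 1160 with the replicate block and 1199 with only the groups compared. With GC-corrected offsets and without TBT replicate 4 they were 3471. When 1 library was left out they were 1019 to 4124, the highest without TBT replicate 4 and the lowest without DMSO replicate 1. Tested genes numbered 12635 without TBT replicate 4 and 12548 without DMSO replicate 1. In TBT against ROSI, 2940 as reported, leaving out 1 library gave 1732 to 4826, the lowest without TBT replicate 1 and the highest without TBT replicate 4. Replicate numbers did not pair the libraries: deviations of same-numbered libraries correlated, across genes, between -0.432 and 0.138. The block ended no other call on a member; among the other genes named it also ended calls in TBT against DMSO on Nyx, Csgalnact1, Chst15, Sdc2, Tgfbr2, Lrp1 and Pcolce and in ROSI against DMSO on B4galt4. GC content was known for 99.1% of tested genes. Depth limits Kera, Fmod and Podn, which had 0 to 113 counts in a library.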
